A study of Mus musculus with 8 samples.

Results

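Smooth muscle forms the muscular coats of the colon, and its contractile and cytoskeletal genes were compared between colons with activated stromal Hedgehog (Hh) signalling and control colons. The 35 genes were chosen by name for what their proteins do in smooth muscle, and all 35 were found among the 22180 genes measured, each represented by its brightest transcript cluster (the set of array probes that reads 1 gene). In Ptch1ΔCol1 mice 34 of the 35 genes were higher than in controls, by a median of 0.15 on the log2 scale and at most 0.46, whereas 47.0% of all genes were higher. The largest differences were those of Myocd, a coactivator of smooth muscle genes, Pcp4, a calmodulin-binding protein, and Synpo2, an actin-binding protein of dense bodies. That of Pcp4 rested on 1 mouse (0.42, and 0.04 without Ptch1ΔCol1 replicate 3). Next came Actg2, the actin of gut muscle, Itga8, an integrin chain, and Pdlim7, an adaptor protein, at 0.35 each. No gene of the 35 passed the threshold of an adjusted p under 0.05 from limma, which 4 genes (0.018%) passed upwards and 2 (0.00902%) downwards over the whole array.

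RNA came from a length of whole colon of 1 cm that was cut 1.5 cm above the anus. All 8 mice had received 5 mg tamoxifen into the peritoneum 7 days earlier. The 4 Ptch1ΔCol1 mice carried Col1a2CreER and 2 floxed Ptch1 alleles (Ptch1fl/fl). Replicates 1 and 2 also carried R26-LSL-tdTomato, and replicate 3 was male. The 4 controls lacked Cre. Replicates 1 and 2 were Ptch1fl/+, with replicate 2 male, and replicates 3 and 4 carried R26-tdTomato. The other 6 mice were female, and no age is given in the labels. Cre was driven by a Col1a2 transgene that is active in stromal cells of the colon and, after systemic tamoxifen, also in other organs. In reporter mice the paper saw this Cre act in the outer muscle coat more often after peritoneal injection than after rectal delivery. Which muscle cells lost Ptch1 in the mice studied here was not measured. Ptch1 restrains the pathway, and its loss frees the signal.

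Gli1, the transcription factor that reports Hh signalling, was between 6.36 and 6.42 in Ptch1ΔCol1 mice, against 4.81 to 5.20 in controls (log2 values, limma adjusted p = 0.00203). Ptch1 mRNA cannot show the loss of the Ptch1 protein, since the floxed allele still gives mRNA. As a target of Hh signalling it was between 9.19 and 9.63 in Ptch1ΔCol1 mice, against 8.48 to 8.77 in controls (limma adjusted p = 0.139). Array medians were between 4.69 and 4.80. Ptch1ΔCol1 replicate 3 stood somewhat apart, with a mean correlation of 0.988 with the other arrays, against at least 0.992 for each of the others. The defining smooth muscle genes Acta2, Actg2, Myh11, Tagln, Cnn1 and Des were all between 11.34 and 12.84 in every colon, far above the array medians. In whole tissue, a change in the share of muscle cells and a change in RNA per muscle cell cannot be told apart.

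A smooth muscle cell shortens when myosin heads pull on actin filaments after calcium and calmodulin have activated the kinase that phosphorylates the myosin light chain. The actin filaments end in dense bodies inside the cell and in dense plaques at the membrane, where integrins and the dystrophin complex pass the force to the matrix. In the gut this apparatus makes up the muscularis mucosae and the circular and longitudinal coats. Many of its genes carry a CArG box, a short element bound by serum response factor (SRF), which myocardin joins as a coactivator, and in the embryo Hh ligands from the epithelium take part in forming the muscle coats.

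**Figure D1:**
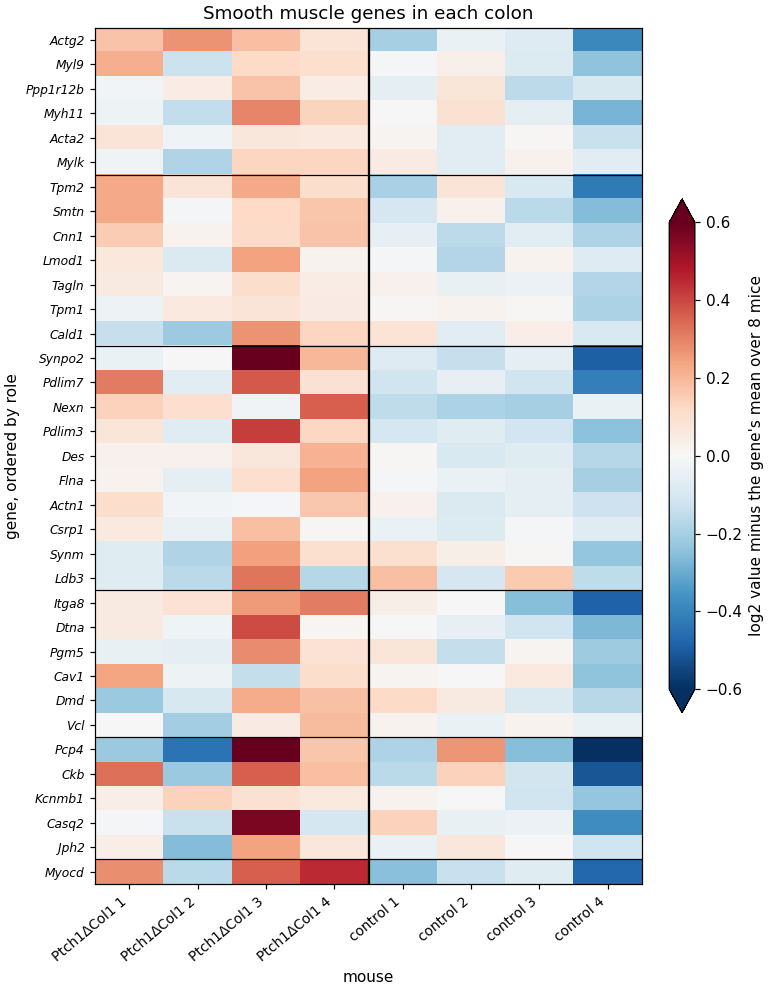
Log2 value of each of the 35 genes (rows, grouped by role, lines between groups) in each of the 4 Ptch1ΔCol1 mice (left) and the 4 controls (right), minus the gene's mean over the 8 mice; red is above and blue below that mean. Control 4 was the lowest of the 8 mice for 25 of the 35 genes, and Ptch1ΔCol1 replicate 3 is the darkest red column.

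Actins, myosin and the enzymes that switch it were higher for 6 of 6 genes, with a median log2 fold change of 0.12. Actg2 encodes enteric γ-actin (chromosome 6, transcript cluster 17468183). Its log2 values were 12.29, 12.39, 12.30 and 12.20 in Ptch1ΔCol1 mice 1 to 4, against 11.92, 12.08, 12.04 and 11.73 in controls 1 to 4. All 4 Ptch1ΔCol1 mice lay above all 4 controls, and control 4 was the lowest. This gave a log2 fold change of 0.35 ± 0.10 (SE, 1.28-fold, limma adjusted p = 0.396; p = 0.029 by a two-sided exact permutation test, in which no smaller p is possible with 4 mice in each group).

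Acta2, which encodes the α-actin of vascular and visceral muscle (chromosome 19), differed much less than Actg2. It was at 12.84, 12.74, 12.83 and 12.82 in Ptch1ΔCol1 mice and at 12.78, 12.70, 12.77 and 12.63 in controls. The groups overlapped, and the log2 fold change of 0.09 had a 95% interval of -0.08 to 0.26. Myh11, the smooth muscle myosin heavy chain (chromosome 16), was at 11.91, 11.79, 12.23 and 12.07 in Ptch1ΔCol1 mice, against 11.94, 12.03, 11.88 and 11.66 in controls. Here Ptch1ΔCol1 mice 1 and 2 lay within the range of the controls, and the log2 fold change was 0.12 (95% interval -0.14 to 0.39, limma adjusted p = 0.775). It was 0.05 without control 4 or without Ptch1ΔCol1 replicate 3, and -0.03 without both. Of the remaining genes of this group, Myl9, the regulatory light chain, had a log2 fold change of 0.15, and Ppp1r12b, a targeting subunit of myosin phosphatase, one of 0.12. Mylk, the light chain kinase, was at 0.02 (95% interval -0.18 to 0.23).

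Proteins that lie along the thin filament were likewise higher for 7 of 7 genes, with a median log2 fold change of 0.12. Cnn1, calponin, an actin-binding protein that slows myosin (chromosome 9, transcript cluster 17515402), was at 12.59, 12.46, 12.55 and 12.61 in Ptch1ΔCol1 mice, against 12.39, 12.28, 12.37 and 12.25 in controls. The lowest Ptch1ΔCol1 mouse, replicate 2, was still above the highest control, and the spread was as narrow in both groups (SD 0.07, n = 4 each). Between the groups the log2 fold change was 0.23 ± 0.08 (SE, limma adjusted p = 0.452; p = 0.029 by the exact permutation test). It kept between 0.21 and 0.26 whichever mouse was left out.

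Tpm2, β-tropomyosin (chromosome 4), had log2 values of 8.49, 8.34, 8.49 and 8.37 in Ptch1ΔCol1 mice and of 8.07, 8.34, 8.17 and 7.84 in controls. Only control 2 reached the level of a Ptch1ΔCol1 mouse, and the log2 fold change was 0.32 ± 0.11 (SE, limma adjusted p = 0.462). Smtn encodes smoothelin, an actin-binding protein of fully contractile cells (chromosome 11). It was at 9.56, 9.32, 9.45 and 9.50 in Ptch1ΔCol1 mice, against 9.23, 9.36, 9.17 and 9.07 in controls. Again control 2 was the control that overlapped, with Ptch1ΔCol1 replicate 2. The log2 fold change of Smtn was 0.25 ± 0.09 (SE), but a second, dimmer transcript cluster of the gene gave 0.08 ± 0.21 (SE).

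Tagln, transgelin or SM22α (chromosome 9), was at 11.57, 11.53, 11.62 and 11.56 in Ptch1ΔCol1 mice and at 11.54, 11.47, 11.48 and 11.34 in controls. Its log2 fold change of 0.11 rested on small steps in a gene that varied little (SD 0.04 and 0.08, n = 4 each, limma adjusted p = 0.674), and control 1 overlapped with Ptch1ΔCol1 replicate 2. Lmod1, leiomodin, which starts new actin filaments, had a log2 fold change of 0.12, Tpm1, α-tropomyosin, one of 0.08 and Cald1, caldesmon, one of 0.02. The level of Cald1 was thus nearly the same in both groups, with a 95% interval from -0.24 to 0.28.

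The scaffold of intermediate filaments and dense bodies was higher for 9 of 10 genes, with a median of 0.16. The groups did not overlap for 3 of the 10, each by only 0.02, where 2.47% of all genes were higher without overlap. Des encodes desmin, the intermediate filament of muscle (chromosome 1). It was at 12.00, 12.00, 12.04 and 12.18 in Ptch1ΔCol1 mice, against 11.98, 11.88, 11.90 and 11.80 in controls. No control reached 12.00, although control 1 came within 0.02, and the log2 fold change was 0.16 ± 0.08 (SE, limma adjusted p = 0.575). Synpo2, synaptopodin-2 or myopodin (chromosome 3), was at 9.32, 9.36, 9.96 and 9.56 in Ptch1ΔCol1 mice, against 9.28, 9.22, 9.30 and 8.87 in controls. The groups just did not overlap, with Ptch1ΔCol1 replicate 3 well above the rest and control 4 well below. Its log2 fold change was 0.38 ± 0.15 (SE, limma adjusted p = 0.518), 0.25 without Ptch1ΔCol1 replicate 3 and 0.28 without control 4.

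Nexn encodes nexilin, which binds actin at sites of adhesion (chromosome 3). Its log2 values were 7.51, 7.47, 7.35 and 7.73 in Ptch1ΔCol1 mice and 7.22, 7.18, 7.17 and 7.33 in controls. Nexn went against the common order of mice, since control 4 was the highest control and Ptch1ΔCol1 replicate 3 the lowest of its group, and still the groups did not overlap. Its log2 fold change was 0.29 ± 0.10 (SE, limma adjusted p = 0.450; p = 0.029 by the exact permutation test), and it was 0.32 without control 4 and 0.34 without Ptch1ΔCol1 replicate 3.

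A pair of PDZ-LIM adaptors that link α-actinin to signalling proteins was also among the 10 genes with the smallest p. Pdlim7 (chromosome 13) was at 7.64, 7.26, 7.70 and 7.42 in Ptch1ΔCol1 mice, against 7.21, 7.28, 7.21 and 6.92 in controls, with a log2 fold change of 0.35 ± 0.12 (SE). Pdlim3 (chromosome 8) was at 11.45, 11.30, 11.79 and 11.50 in Ptch1ΔCol1 mice, against 11.27, 11.30, 11.26 and 11.13 in controls, with a log2 fold change of 0.27 ± 0.11 (SE). For both genes the overlap came from Ptch1ΔCol1 replicate 2 and control 2. Their relative Ldb3, known from the Z-disc of striated muscle (chromosome 14), was the only gene of the 35 that was lower. It was at 5.99, 5.90, 6.38 and 5.89 in Ptch1ΔCol1 mice and at 6.24, 5.96, 6.22 and 5.91 in controls, a log2 fold change of -0.04 (95% interval -0.34 to 0.25). Of the rest, Flna, filamin A, which crosslinks actin, had a log2 fold change of 0.15, Actn1, α-actinin, one of 0.12, Csrp1, a LIM protein, one of 0.10 and Synm, the intermediate filament protein synemin, one of 0.04.

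**Figure D2:**
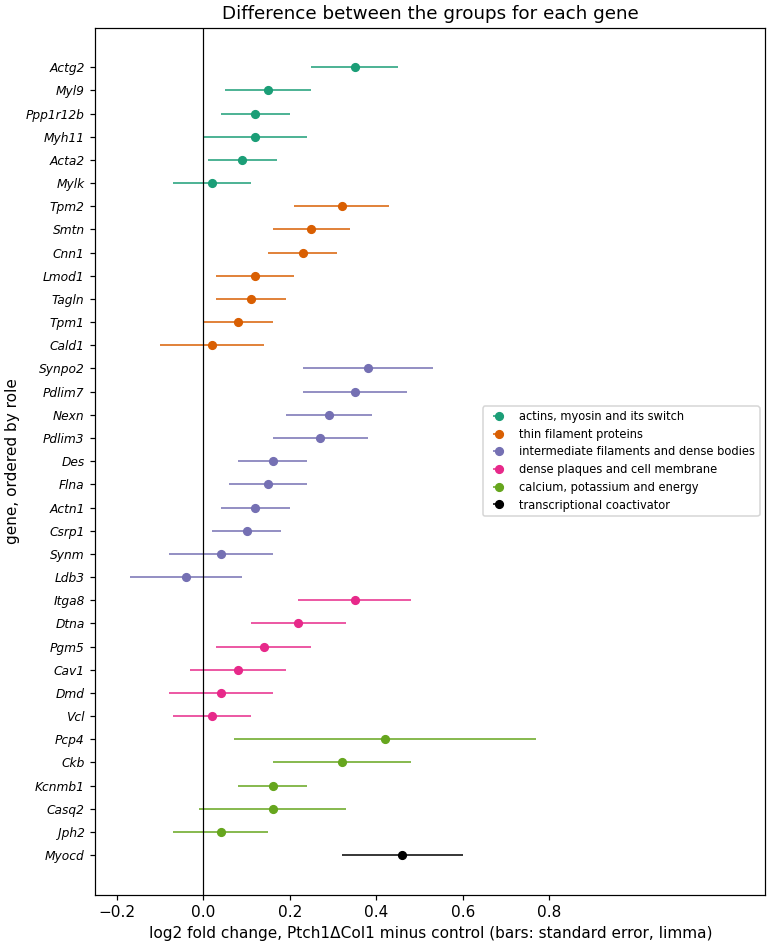
Log2 fold change (horizontal axis, Ptch1ΔCol1 minus control) of the 35 genes (vertical axis, coloured by role) with the standard error from limma over 4 mice per group. Only Ldb3 lies left of 0, and Myocd, Pcp4 and Synpo2 lie farthest right, Pcp4 with by far the widest error.

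Dense plaque and membrane genes were higher for 6 of 6 genes with a median of 0.11. Itga8, the α8 integrin chain, by which muscle cells hold on to the matrix (chromosome 2, transcript cluster 17381717), was at 7.33, 7.36, 7.53 and 7.58 in Ptch1ΔCol1 mice, against 7.31, 7.27, 7.02 and 6.79 in controls. The groups did not overlap, but the 2 Ptch1fl/+ controls (1 and 2) lay just below the Ptch1ΔCol1 mice and the 2 R26-tdTomato controls (3 and 4) well below. The log2 fold change was 0.35 ± 0.13 (SE, limma adjusted p = 0.479; p = 0.029 by the exact permutation test) and 0.16 against the Ptch1fl/+ controls alone. Dtna, dystrobrevin of the dystrophin complex, had a log2 fold change of 0.22, and Pgm5, aciculin, a partner of dystrophin at dense plaques, one of 0.14. Without Ptch1ΔCol1 replicate 3 these were 0.12 and 0.06. Cav1, the coat protein of caveolae, was at 0.08, Dmd, dystrophin itself, at 0.04 and Vcl, vinculin, at 0.02. The last 3 had 95% intervals that reached at least 0.16 below 0.

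Genes of calcium, potassium and energy handling were higher for 5 of 5 genes, with a median of 0.16 and the widest spread between mice. Kcnmb1 encodes the β1 subunit that tunes the large-conductance calcium-activated potassium channel to calcium in muscle. It was at 9.45, 9.55, 9.50 and 9.47 in Ptch1ΔCol1 mice, against 9.43, 9.41, 9.29 and 9.18 in controls, and is given in full because its groups did not overlap. The log2 fold change was 0.16 ± 0.08 (SE, limma adjusted p = 0.583). Pcp4, which modulates calmodulin, is given because 1 mouse set its value. It was at 9.62, 9.40, 11.18 and 10.01 in Ptch1ΔCol1 mice, against 9.66, 10.11, 9.59 and 9.18 in controls. Ptch1ΔCol1 replicate 3 was far above all others, and the log2 fold change was 0.42 ± 0.35 (SE) with it and 0.04 without it. Casq2, a calcium store protein, likewise had a log2 fold change of 0.16 with that mouse and -0.00 without it. Ckb, the brain-type creatine kinase that smooth muscle also uses, was at 0.32 ± 0.16 (SE) and Jph2, which ties the store to the cell membrane, at 0.04. Pcp4 and Kcnmb1 were singled out here after their values were seen.

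Myocd, myocardin, had the largest log2 fold change of the 35 genes (chromosome 11, transcript cluster 17264159). Its log2 values were 8.36, 7.92, 8.44 and 8.53 in Ptch1ΔCol1 mice, against 7.83, 7.95, 8.01 and 7.61 in controls. Of the Ptch1ΔCol1 mice 3 lay above every control, whereas replicate 2 lay among the controls. The log2 fold change was 0.46 ± 0.14 (SE, 1.38-fold, limma adjusted p = 0.440; p = 0.0857 by the exact permutation test). It was 0.38 without control 4 and 0.42 without Ptch1ΔCol1 replicate 3.

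**Figure D3:**
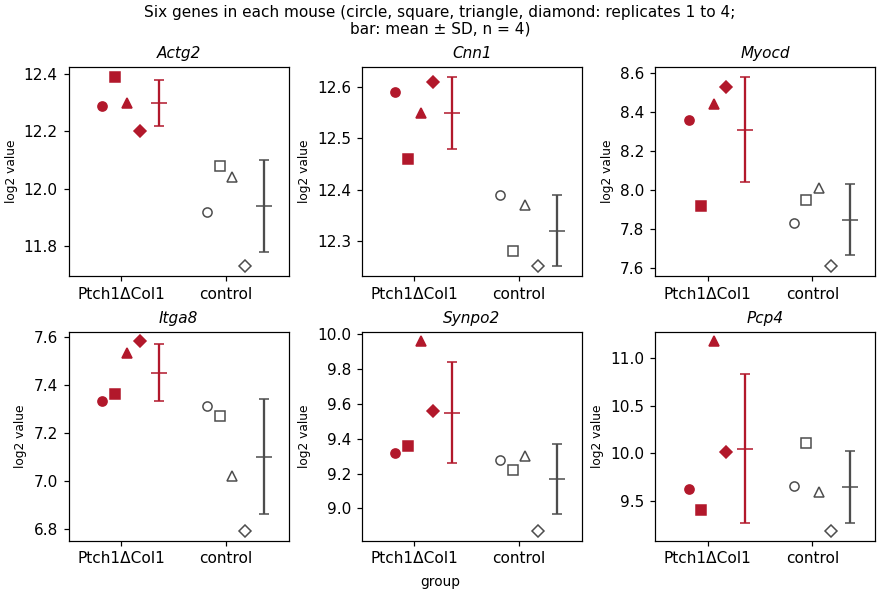
Log2 values (vertical axis) of 6 of the genes in each Ptch1ΔCol1 mouse (left, filled) and each control (right, open), with replicates 1 to 4 as circle, square, triangle and diamond, and the mean ± SD (n = 4). The groups are apart for Actg2 and Cnn1 and only just apart for Itga8 and Synpo2. Ptch1ΔCol1 replicate 2 falls among the controls for Myocd, and Ptch1ΔCol1 replicate 3 stands alone for Pcp4.

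Counted over all 35 genes, 10 (28.6%) were higher at an unadjusted p under 0.05 from limma and none was lower, where 4.31% of all genes were higher and 4.91% lower at that level. The 10 were Actg2, Myocd, Nexn, Cnn1, Tpm2, Pdlim7, Itga8, Smtn, Pdlim3 and Synpo2. The groups did not overlap for 7 genes (20.0%), all higher, where 2.47% of all genes were higher, 2.9% lower and 5.37% either without overlap. These were Actg2, Cnn1, Nexn, Synpo2, Des, Itga8 and Kcnmb1. For all of them other than Actg2 and Cnn1 the groups only just did not overlap. For Kcnmb1 the lowest Ptch1ΔCol1 mouse was at 9.45, against 9.43 in the highest control. Among the 10180 genes at least as bright as Ldb3, the dimmest of the 35, 43.4% were higher and 4.28% were higher at an unadjusted p under 0.05. Genes of the list that are expressed in the same cells are not independent of each other, and which cells gave each value was not measured. The list was also put together with results of these mice known, so these counts describe the list and carry no test.

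The mean of the 35 genes, each taken relative to its own mean over the 8 mice, was 0.06, -0.06, 0.24 and 0.12 in Ptch1ΔCol1 mice 1 to 4, against -0.02, -0.03, -0.06 and -0.24 in controls 1 to 4. The difference between groups was 0.18, and the groups overlapped, since Ptch1ΔCol1 replicate 2 was level with control 3 and below controls 1 and 2. The 2 mice at the ends, Ptch1ΔCol1 replicate 3 and control 4, were at the ends for most genes. Control 4 was the lowest of the 8 mice for 25 of 35 genes (71.4%), against 9.35% of all genes, and the lowest control for 29 (82.9%), against 23.4%. Ptch1ΔCol1 replicate 3 was the highest for 19 without ties (54.3%), against 22.5%. Replicate 2 was the lowest Ptch1ΔCol1 mouse for 24 genes (68.6%), against 22.5% of all genes.

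Leaving out control 4 reduced the difference in the mean to 0.13. Then 31 of the 35 genes were higher, with a median of 0.11, where 47.6% of all genes were higher. At an unadjusted p under 0.05 from limma 5 were higher (Actg2, Myocd, Nexn, Cnn1 and Tpm2), where 3.39% of all genes were. The groups did not overlap for 7 of the 35 genes without that mouse, where 3.67% of all genes were higher without overlap. Leaving out Ptch1ΔCol1 replicate 3, the only male of its group, in its place gave 28 higher genes, where 44.7% of all genes were higher. The mean difference was then 0.13, and 8 genes were higher at that p, where 5.24% of all genes were. Without both mice, 25 of 35 were higher, where 45.1% of all genes were. The difference in the mean was then 0.08, against 0.18 with all 8 mice. The mean difference was 0.12 against the Ptch1fl/+ controls alone and 0.24 against the R26-tdTomato controls alone, which include control 4. It was 0.15 among females.

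**Figure D4:**
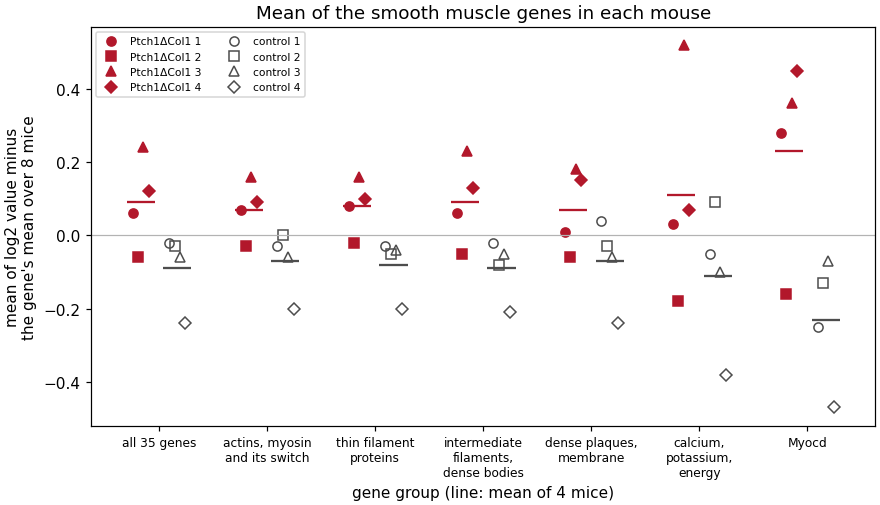
Mean over the genes of a role, each relative to its own mean over 8 mice (vertical axis, log2 units), in each Ptch1ΔCol1 mouse (filled, left) and each control (open, right); lines are group means of 4 mice. Control 4 (open diamond) is the lowest mouse in all 7 groups, and the calcium, potassium and energy genes reach 0.52 in Ptch1ΔCol1 replicate 3 (filled triangle).

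The mice at the ends were nearly the same in each role, whereas the order of the others varied. Control 4 was the lowest mouse for all 6 roles, at -0.20 for actins and myosin, -0.20 for thin filament proteins, -0.21 for intermediate filaments and dense bodies, -0.24 for dense plaques and membrane, -0.38 for calcium, potassium and energy and -0.47 for Myocd. Ptch1ΔCol1 replicate 3 was the highest for each role other than Myocd, for which replicate 4 was. The differences between groups were from 0.14 to 0.22 for the 5 roles with several genes. For the thin filament proteins all 4 Ptch1ΔCol1 mice lay above all 4 controls (0.08, -0.02, 0.16 and 0.10, against -0.03, -0.05, -0.04 and -0.20). The margin was narrow, between -0.02 in Ptch1ΔCol1 replicate 2 and -0.03 in control 1, and in every other role the groups overlapped.

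Markers of other cells moved along with some of these mice. Ptch1ΔCol1 replicate 3 had a mean of -1.15 over 6 leukocyte markers and of -0.71 over 6 endothelial markers, each relative to the mean of the 8 mice, whereas the other 3 Ptch1ΔCol1 mice were between -0.09 and 0.33 for leukocytes. Over all mice 0 of 6 leukocyte markers were higher in Ptch1ΔCol1 colons (list means of -1.15 to 0.33 in Ptch1ΔCol1 mice, against 0.02 to 0.40 in controls). Over 10 fibroblast markers Ptch1ΔCol1 mice ranged from -0.26 to 0.35, against -0.25 in control 4 and 0.01 to 0.11 in the other controls, and 6 of these markers were higher, with a median of 0.08. Of 10 epithelial markers 8 were higher in Ptch1ΔCol1 mice, by a median of only 0.05. Of 8 pericyte markers 4 were higher, with a median of 0.02, of 6 endothelial markers 3, with a median of -0.00, and of 6 markers of the interstitial cells of Cajal, the pacemakers of gut muscle, 2, with a median of -0.07. Of 6 enteric neuron markers 5 were higher (median 0.11) and of 4 enteric glia markers 2 (median 0.04). The part of these shifts in the smooth muscle values was not tested.

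Skeletal muscle, which surrounds the anus, shares several of these genes. Of 14 skeletal muscle markers 10 were higher in Ptch1ΔCol1 mice with a median of 0.19 (list means of 0.11, -0.02, 0.26 and -0.04 in Ptch1ΔCol1 mice, against -0.10, -0.02, -0.07 and -0.11 in controls). Tnnt3, fast troponin T, was the one with the largest difference, with 5.54, 5.48, 6.50 and 5.47 in Ptch1ΔCol1 mice, against 5.02, 5.19, 5.19 and 5.30 in controls. Ckm, the muscle creatine kinase, was at 7.23, 7.04, 7.97 and 7.01 in Ptch1ΔCol1 mice, against 7.14, 7.08, 7.13 and 6.89 in controls, highest in Ptch1ΔCol1 replicate 3. Across the 8 mice Acta1, the skeletal α-actin, was between 5.95 and 7.02, above every array median. The fast fibre heavy chains Myh1 and Myh4 were at most at 3.01, below every array median. Another fast fibre heavy chain, Myh2, was higher, between 3.98 and 4.73, though in each mouse below the median of its own array. Whether skeletal muscle had a part in the high Casq2 and Ldb3 values of Ptch1ΔCol1 replicate 3 was not tested. Of 6 adipocyte markers 6 were higher, with a median of 0.54 and a wide spread in both groups. Their part was not tested either.

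Other muscle genes, listed by function, did not all run with the contractile genes. Of 19 further cytoskeletal genes of smooth muscle 18 were higher, with a median of 0.20, where 47.0% of all genes were higher. At an unadjusted p under 0.05 from limma 7 of them were higher, where 4.31% of all genes were. Among them Myl6, the essential myosin light chain, was at 7.21, 7.20, 7.28 and 6.98 in Ptch1ΔCol1 mice, against 6.64, 6.84, 6.79 and 6.57 in controls, a log2 fold change of 0.46 ± 0.10 (SE, limma adjusted p = 0.290). Hspb1, a small heat shock protein that binds actin, had a log2 fold change of 0.57 ± 0.12 (SE, limma adjusted p = 0.290), and Rbpms, an RNA-binding protein that sets splicing in smooth muscle, one of 0.29 ± 0.09 (SE). These 3 were named for their small p. The groups did not overlap for 4 of the 19 genes, these 3 among them, where 2.47% of all genes were higher without overlap. Which cells of the whole colon gave these values was not measured.

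Calcium channels, pumps and receptors of muscle showed no such direction: 3 of 13 were higher, 8 lower and 2 level, with a median of -0.03. Kcnma1, the pore of the channel whose β1 subunit is Kcnmb1, was at 8.87, 8.98, 8.79 and 9.08 in Ptch1ΔCol1 mice, against 9.23, 9.06, 9.16 and 9.11 in controls, a log2 fold change of -0.21 ± 0.09 (SE). Kcnmb1 was thus higher and its pore partner lower, neither past the adjusted threshold, and the difference between them was not tested. The muscarinic receptors that take up the signal of enteric nerves were at -0.20 (Chrm2) and 0.17 (Chrm3).

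Regulators of SRF, of muscle genes and of contraction were higher for 8 of 15 genes with a median of 0.07. Tgfb1i1 (Hic-5), a LIM protein of focal adhesions, was at 8.84, 8.59, 8.98 and 8.91 in Ptch1ΔCol1 mice, against 8.38, 8.57, 8.39 and 8.15 in controls, a log2 fold change of 0.46 ± 0.12 (SE, limma adjusted p = 0.361). Foxf1, a forkhead factor of gut mesenchyme, had a log2 fold change of 0.43 ± 0.17 (SE) and Gata6 one of -0.16 ± 0.07 (SE). Srf itself was at 9.14, 8.98, 9.15 and 8.96 in Ptch1ΔCol1 mice, against 8.91, 8.97, 8.97 and 8.83 in controls, so the groups overlapped.

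Further genes of the dystrophin complex, adhesion and caveolae were higher for 12 of 16, with a median of 0.05. Tns1 (tensin) had a log2 fold change of 0.29, Parva (parvin) one of 0.18 and Utrn (utrophin) one of -0.25. Of 6 actins and myosins that every cell uses 4 were higher. Among these Myl12b, a regulatory light chain, was at 0.20, Myh10, a non-muscle heavy chain, at 0.32 and Actg1, cytoplasmic γ-actin, at -0.11. Actg2 at 0.35 and Actg1 at -0.11 thus lay on opposite sides of 0, a difference that was not tested.

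**Figure D5:**
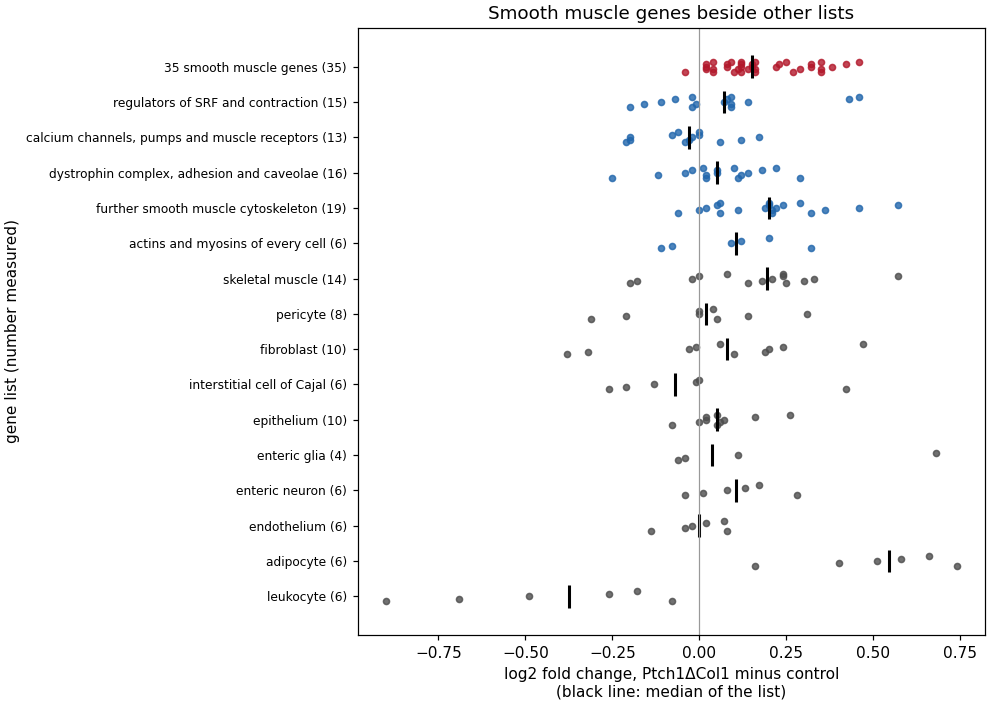
Log2 fold change (horizontal axis, Ptch1ΔCol1 minus control) of each gene, 1 row per list with the number of genes measured; red marks the 35 smooth muscle genes, blue other muscle lists, grey cell type markers, and the black line is the median. The red row has its median at 0.15, the further cytoskeletal genes at 0.20, the calcium channels, pumps and receptors at -0.03 and the leukocyte markers at -0.38.

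Promoters were examined because SRF and myocardin act on this class of gene through CArG boxes (2 C, then 6 letters that are each A or T, then 2 G). RefSeq promoters of assembly GRCm38.p6, from 250 bases before to 50 after the start site, were at hand for 29 of the 35 genes. A CArG box on either strand was present in 4 of the 29 (Myl9, Vcl, Ldb3 and Dmd), where 1.81% of 27025 genes had one. Boxes with a single C or G among the 6 inner letters were present in 6 of the 29 (Acta2, Myl9, Jph2, Synm, Pdlim3 and Pcp4), where 9.69% of genes had one. Acta2 and the 4 genes with a complete box are shown because they span the list from regulatory light chain to dystrophin, with each box in capitals and the strand of the gene read 5′ to 3′. The Acta2 stretch is chr19:34255374-34255482 on the minus strand, the Myl9 stretch chr2:156775278-156775399 on the plus strand, and that of Vcl chr14:20929148-20929205 on the plus strand. Ldb3 is shown for chr14:34588682-34588741 on the minus strand and Dmd for chrX:82948747-82948806 on the plus strand.
Acta2: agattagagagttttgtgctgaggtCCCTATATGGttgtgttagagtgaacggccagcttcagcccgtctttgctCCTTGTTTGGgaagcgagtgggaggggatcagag
Myl9: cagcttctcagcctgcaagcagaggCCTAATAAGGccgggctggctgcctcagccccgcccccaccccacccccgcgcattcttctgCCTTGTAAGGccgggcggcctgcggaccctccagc
Vcl: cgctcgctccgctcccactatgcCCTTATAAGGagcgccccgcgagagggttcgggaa
Ldb3: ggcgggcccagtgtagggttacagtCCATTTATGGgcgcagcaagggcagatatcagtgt
Dmd: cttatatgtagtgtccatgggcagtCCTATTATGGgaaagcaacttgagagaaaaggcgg

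Acta2 and Myl9 have a pair of boxes each, both of those of Acta2 with a single C or G inside. These genes had log2 fold changes of 0.09 (Acta2), 0.15 (Myl9), 0.02 (Vcl), -0.04 (Ldb3) and 0.04 (Dmd), all below or at the median of the list. The other genes with a C or G inside their box had log2 fold changes of 0.04 (Jph2), 0.04 (Synm), 0.27 (Pdlim3) and 0.42 (Pcp4, 0.04 without Ptch1ΔCol1 replicate 3). Promoters of Actg2, Myh11, Tagln, Nexn, Dtna and Myocd were not examined here. The letters GACCACCCA, a site of the Gli factors, were searched on both strands and were found in 0 of the 29 promoters, where 0.289% of genes had them.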

How the data were processed

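Total RNA of whole colon from 4 Ptch1ΔCol1 mice and 4 controls was hybridised to 1-colour Affymetrix Mouse Gene ST 2.0 arrays. Normalization by the authors used the robust multi-array average, and the deposited log2 values entered the analysis without further scaling. The arrays hold 41345 transcript clusters. Those with several gene symbols in the probe table (1820) or without one (16004) were left out. From the other 23521 the brightest cluster of each gene was taken, which gave 22180 genes.

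Groups were compared over all these genes by the moderated test of limma 3.58.1 (R 4.3.3), with p adjusted by Benjamini-Hochberg at a threshold of 0.05. For single genes the 70 ways to divide the mice gave an exact permutation p, two-sided. The limma step was tested on simulated data. Each array is 1 mouse, and with 4 per group the number of arrays limits precision.

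The 35 genes and all lists were chosen with earlier results of these data known. Values of every mouse are printed for the 10 genes of the list with the smallest p, for Acta2, Actg2, Myh11, Tagln, Cnn1, Des and Myocd, and for those with a negative log2 fold change. From the further muscle lists and the marker lists the genes with the smallest p, up to 3, could be named. Others (Srf, Mrtfb, Ckm, Acta1, Myh1, Myh2 and Myh4) were named after their values were seen. The search for CArG boxes with 1 C or G inside was also added after the data were seen. Some listed genes are not reported here. Replicate numbers in the labels do not pair the mice. Alternatives changed the choice of transcript cluster, the filter on dim genes, the scaling, the variance model, the covariates and the mice included. The program behind the authors' normalization is not given in the sources used here.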

Additional observations from a re-analysis of the deposited data

Results flagged for a closer look

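Outlying mice were sought in 84 groups of 4 mice (the 35 genes, their mean and the means of their 6 roles, in each group). The gap between the outermost mouse and its nearest neighbour was divided by the range of the 4 mice. Control replicate 4 stood apart in 3 of the 84, which is no more often than the about 1 in 20 that chance gives. The mean of the 35 genes was -0.24 in that mouse, against -0.06 to -0.02 in the other controls. The mean of the thin filament proteins was -0.20, against -0.05 to -0.03, and Tpm1 was at 10.19, against 10.39 to 10.40. The 3 values share genes and are not independent.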

How the results depend on the processing

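Under 22 alternatives, 8 of which left out 1 mouse each, the count of the 35 genes past the adjusted threshold of limma was 0 (10 genes at an unadjusted p under 0.05 with the chosen settings). The mean difference was between 0.12 and 0.24 under all of them other than the one without both control 4 and Ptch1ΔCol1 replicate 3, which was added after the data were seen and gave 0.08. Of 770 gene values under alternatives, 731 had the direction reported above and 39 the opposite one, in 10 genes. With array weights Cald1 was at -0.04 and Jph2, Mylk, Synm and Vcl at -0.01. Among females Cald1 was at -0.09, Mylk at -0.03, Synm and Vcl at -0.01 and Dmd at -0.00. Against the Ptch1fl/+ controls alone Dmd was at -0.06 and Synm at -0.04. Without control 4 and Ptch1ΔCol1 replicate 3, Pcp4 was at -0.11, Casq2 and Synm at -0.10, Cald1 at -0.09, Dmd at -0.08, Jph2 at -0.06, Mylk and Myh11 at -0.03 and Vcl at -0.01. Leaving out 1 mouse at a time gave -0.07 to 0.10 for Cald1, -0.00 to 0.23 for Casq2, -0.03 to 0.12 for Dmd, -0.03 to 0.14 for Jph2, -0.16 to 0.01 for Ldb3, -0.01 to 0.09 for Mylk, -0.03 to 0.11 for Synm and -0.04 to 0.09 for Vcl.

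Over all genes, where 6 were called, the count was 3 after quantile normalization, 11 with a trended and robust variance, 1 with sex and 2 with the reporter in the model (R26-LSL-tdTomato and R26-tdTomato taken as the same allele, which the labels do not state), 1 against the Ptch1fl/+ controls, 0 against the R26-tdTomato controls alone, 3 among females, 3 without control 4 and Ptch1ΔCol1 replicate 3, and 1 to 12 when 1 mouse was left out. With the replicate number as a block it was 3, with 34 of the 35 genes higher; same-numbered mice did not deviate together (correlations of -0.05 to 0.03). Centring each array on its median moved the share of all genes that were higher to 56.2% (47.0% as deposited) and the difference in the mean of the 35 genes to 0.21, with 34 still higher. The causes were not tested.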
